A study of Jatropha curcas with 31 samples.

Results

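The 150 transcript contigs described here were those whose level stood highest in the dry seed of Jatropha curcas, the physic nut, above every earlier stage of seed maturation. They were chosen by their seed values. Each of 19838 contigs was represented by its brightest probe on average across the 21 arrays of seed, and a score was taken as the mean of stage VI minus the highest mean of stages I to V in the deposited log2 table. A score of at least 1.5 was required, 2 contigs were left out and are not analysed here, and the 150 highest of the remaining 334 were taken. Everything said of their seed levels is therefore a description without a test.

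Seeds came from 1 selected plant in Ethiopia and were staged by fruit and seed colour as green-white (I, 3 arrays), green-half (II, 4), green-black (III, 3), yellow (IV, 3), brown (V, 4) and dry (VI, 4). Leaf RNA of toxic (5 arrays) and non-toxic (5 arrays) plants was hybridised on the same 1-colour design, which gave 31 arrays on 4 slides. Slide 4 was scanned on a separate date. Its only seed arrays were replicate 4 of stages II, V and VI, so stages I, III and IV had none there. Some titles of brown and dry arrays carry marks found on no other arrays, and what these marks stand for is not given. The sources used here do not describe the leaf plants beyond toxicity. Leaf array titles carry codes that partly recur within a group, and what the codes stand for is not given. Whether the 5 arrays of a leaf group came from 5 separate plants is therefore not known. No array carries a treatment. Since all seeds shared 1 mother plant, the spread between seed arrays does not cover differences between plants. Each probe was designed in the sense or the antisense direction of its contig, and how a contig itself lies relative to its gene is not given in the sources used here.

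Orthodox seeds, such as those of oilseed crops, finish maturation by losing most of their water. In many plants this last step is accompanied by chaperones, by soluble sugars of the raffinose family that are built from galactinol, and by enzymes that remove reactive oxygen species. Abscisic acid is the hormone best known for holding the maturing seed in dormancy, and the dry seed stores transcripts that are used or removed at the start of germination.

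Of the 150 contigs, 46 could be tied to an annotation, an accession or a primer pair in the supplementary tables of the study, which were read only in part. These tables gave 11 contigs an enzyme, 28 a gene ontology (GO) term and 8 a text description, and 10 matched a RefSeq gene of the assembly XTBG_Jcur_1.0. Nothing was read there for the others, which are described by contig number.

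The median level of the 150 contigs was 6.98 in stage I, 7.13 in II, 7.59 in III, 7.67 in IV, 7.67 in V and 10.40 in VI, all as log2 intensity of the deposited table. Over all 19838 contigs, the medians of the 6 stages lay between 7.79 and 7.87. The 4 stage VI arrays had medians over the 150 contigs of 10.42, 10.54, 10.34 and 10.22, and no array of stages I to V exceeded 7.84. The dry seed arrays thus stood together and apart from the brown seed, by a median of 2.46 over the 150 contigs against 0.06 over all contigs.

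**Figure D1:**
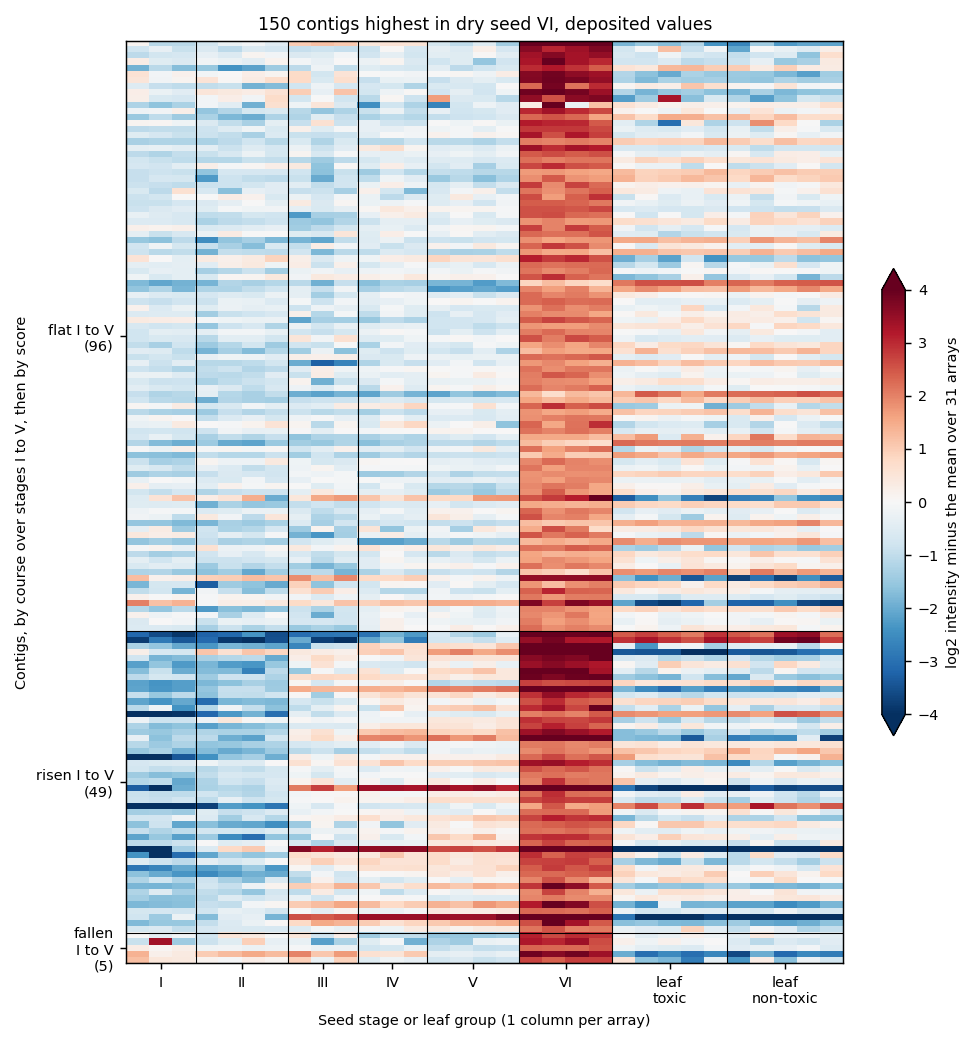
Deposited log2 intensity of the 150 contigs (rows) on the 31 arrays (columns), each row minus its own mean, with rows split by their course from stage I to V. The 4 stage VI columns are the highest seed columns in nearly every row, while the 10 leaf columns range from far below to above stage VI.

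The score ran from 1.86 to 4.90 with a median of 2.14. It was at least 4 in 4 contigs, between 3 and 4 in 16, between 2.5 and 3 in 14, between 2 and 2.5 in 75 and under 2 in 41. The contigs at the lower edge were contig21689 with a score of 1.87, contig16873 with 1.87 and contig16261 with 1.86, and the first ones outside were contig13310 with 1.86, contig14673 with 1.85 and contig17237 with 1.85, so the edge is a count and not a gap in the values. All 4 stage VI arrays lay above all 17 arrays of stages I to V in 148 of the 150 contigs, beside 12.7% of all contigs, and above all 4 stage V arrays in 149, beside 27.3%. Because the rule used these values, nothing is read from those counts. The exceptions were contig06016 and contig08698, which were named after their values were seen, like contig17431, contig14144, contig02569 and contig09602 below. In contig06016 the stage VI arrays read 4.73, 15.002, 4.18 and 5.64 and the highest array of stages I to V read 5.08. Its place among the 150 thus rests on replicate 2, its probe was above background on only 2 of the 4 arrays, 1 of its seed arrays had a missing scanner value, and its score from the scanner intensities was 0.83. In contig08698 the lowest stage VI array read 6.77 and the highest earlier one 7.52.

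Probes on 148 of the 150 contigs were well above background on all 4 stage VI arrays, and 101 were so on all 17 arrays of stages I to V. Most contigs were thus measured on both sides of the rise. Only 4 contigs (contig12094, contig06016, contig17431 and contig14144) were above background on no array of stages I to V, so that their rise has only a lower bound. Of these, contig12094 was at least 12-fold higher in stage VI on the scale of the deposited table, with the dim side set, array by array, to the lowest level of a probe above background where its own level was lower. Its 4 stage VI arrays read 7.03, 6.44, 6.78 and 7.11, and its 4 stage V arrays read 3.02, 2.86, 3.62 and 2.71.

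The contigs were classed by their change from stage I to stage V, which leaves out the stages between. Stage V differed from stage I by no more than 1 log2 unit in 96 contigs, was higher by more than 1 in 49 and lower by more than 1 in 5, and over all contigs the shares of these classes were 65.7%, 17.1% and 17.2%. Contig17153, for example, counts as flat although it was highest before drying in stage III. The stage with the highest mean before drying was V in 59 contigs, IV in 38, III in 23, II in 11 and I in 19. In the 49 contigs that had already risen, the median went from 6.74 in stage I to 9.34 in V and 11.66 in VI. In the 96 flat ones it was 7.07 in I, 7.12 in V and 9.89 in VI. The median of stage VI minus stage V was 2.20 in the risen contigs and 2.51 in the flat ones.

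Cell wall and carbohydrate enzymes held ranks 1 and 3. Contig15432 and contig15434 are annotated as cellulose synthase (UDP-forming), the enzyme that makes the glucan chains of cellulose. On contig15432 the 4 stage VI arrays read 11.05, 10.94, 10.86 and 10.92, the stage V arrays 6.26, 5.76, 5.51 and 6.64, and the arrays of stages I to IV between 3.05 and 5.06. Its score of 4.90 corresponds to 29.8-fold, the largest of the 150 contigs, and stage VI and stage V did not overlap. On contig15434 the stage VI arrays read 10.27, 10.61, 10.01 and 9.98 and the stage V arrays 6.05, 6.16, 5.87 and 6.26, a score of 4.13. Both probes were above background on only 5 of the 17 arrays of stages I to V, which include all 4 of stage V, so the levels of stages I to IV are mostly below what the arrays could measure. In leaf, contig15432 had a mean of 9.57 in the 10 arrays and contig15434 one of 9.92, which places both far above the immature seed. The leaf arrays of contig15434 lay between 9.37 and 10.83 and overlapped its stage VI arrays, whereas those of contig15432 lay between 9.02 and 10.49 and did not. The annotated exostosin family member contig00807, of a family of glycosyltransferases, had stage VI arrays of 10.62, 12.50, 11.37 and 10.49 over a stage V mean of 9.34 ± 0.18 (SD, n = 4), the most uneven dry seed values of the annotated contigs. The other probes of the same direction on contig00807 had scores of 0.09 and 0.18. This contig, like contig06463, contig15133, contig15031 and contig15134 below, fell outside the rule for named genes and was chosen after its values were seen.

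Raffinose family oligosaccharides protect membranes and proteins in dry tissue, and 2 contigs with an enzyme annotation of their synthesis were among the 150. Contig15031 is annotated as inositol 3-alpha-galactosyltransferase (galactinol synthase), which makes the galactosyl donor of the pathway. Its stage VI arrays read 12.53, 11.54, 12.53 and 12.23, against 10.28, 10.28, 10.26 and 10.15 in stage V. It was already at 10.32 ± 0.45 (SD, n = 3) in stage I and its stage II arrays were lower, between 8.71 and 9.21. Contig03467, annotated as alpha-galactosidase and galactinol-sucrose galactosyltransferase (raffinose synthase), read 11.87, 11.76, 11.71 and 11.15 in stage VI and 8.69, 8.52, 8.77 and 8.45 in stage V, a score of 2.91. Which of its 2 annotated activities contig03467 has was not settled. It was steadier over stages I to V, with means between 7.89 and 8.71. Mean leaf levels set the pair apart, since contig15031 stood at 5.75 in leaf, 6.46 log2 units under stage VI, and contig03467 at 8.22. That mean lies within the range of contig03467 in immature seed, but its single leaf arrays spread far beyond this range on both sides, as given below.

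Chaperones help other proteins fold and hold unfolded ones in solution. Contig00782, annotated as a 70 kDa heat shock protein and matched to the RefSeq gene LOC105630293, was the brightest of the 150 contigs in the dry seed. Its stage VI arrays read 17.05, 17.22, 17.12 and 17.92 and its stage V arrays 13.97, 13.92, 13.95 and 13.95, a rise of 3.38 or 10.4-fold. It had climbed earlier as well, from 11.97 ± 0.59 (SD, n = 3) in stage I to 13.89 ± 0.27 (SD, n = 3) in III. Leaf arrays lay between 12.06 and 12.85, near the level of stages I and II. The GO term protein folding was attached to contig19228, contig11891, contig11195 and contig07838. Stage VI means of these 4 contigs lay between 11.67 and 13.04, and their scores between 1.98 and 2.83. Contig19228 was the most even of them, with stage VI arrays of 12.46, 12.38, 12.47 and 12.41 and means between 9.18 and 9.60 in stages I to V. Contig07838, which also carries response to heat and ethylene signaling, was among the 5 contigs that fell before drying: it went from 11.06 ± 0.45 (SD, n = 3) in stage I to 9.64 ± 0.12 (SD, n = 4) in V and rose to 13.04 ± 0.17 (SD, n = 4) in VI. The short contig16873 shares with contig11891 the terms response to high light intensity and to hydrogen peroxide, and stood at 8.81 ± 0.21 (SD, n = 4) in VI.

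Catalase breaks down hydrogen peroxide, and the neighbouring contig15133 and contig15134 both carried that annotation. On contig15134 the stage VI arrays read 8.68, 8.70, 8.45 and 8.32 and the stage V arrays 6.33, 6.63, 6.20 and 6.51. On contig15133 they read 6.58, 6.05, 6.64 and 6.85 against 4.37, 4.88, 4.44 and 4.14. The shorter contig15133 was above background on only 5 of the 17 arrays of stages I to V, and contig15134 on 15, and contig15134 also carries the term RNA splicing. Both stood between the immature and the dry seed in leaf, at 5.64 and 7.49.

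Abscisic acid signaling and maintenance of seed dormancy were both terms of contig02518, a contig of 142 bases with a single probe. It read 11.21, 10.29, 11.10 and 10.68 in stage VI, 7.70, 8.04, 7.47 and 7.83 in stage V, and had its highest earlier mean, 8.35 ± 0.30 (SD, n = 3), in stage IV. Leaf arrays lay between 8.12 and 8.82, all below stage VI and all above stages I and II.

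GO terms of RNA metabolism were attached to a further group. Contig12328 and contig06463 carry mRNA and RNA catabolism, contig10416 RNA processing and the small nucleolar ribonucleoprotein complex, contig04035 mRNA processing, contig04165 RNA splicing, and contig04174 and contig10510 helicase activity. Their stage VI means lay between 9.42 and 12.67 and their scores between 1.92 and 2.17. Of the 150, 75 scored between 2 and 2.5 and 41 under 2, so nothing is read from this narrow range. The brightest, contig12328, read 12.67, 12.75, 12.60 and 12.66 in stage VI and 10.10, 10.13, 9.93 and 10.03 in stage V. The splicing contig04165 was the farthest from leaf, at 9.42 ± 0.17 (SD, n = 4) in stage VI and 5.48 in leaf, whereas the mRNA processing contig04035 read 11.15, 10.88, 11.11 and 10.87 in stage VI and was nearly as high in leaf, at 10.61. Contig13128, with the term for initiation of transcription, rose from 9.16 ± 0.05 (SD, n = 4) to 11.36 ± 0.09 (SD, n = 4) between V and VI. Contig01276 carries RNA metabolism and nucleic acid binding, contig02724 catabolism of nitrogen compounds, and contig03157 and contig05712 zinc ion binding, and their scores ran from 1.96 to 2.38.

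Several other enzymes and proteins were named. Contig00563, described as ran GTPase binding and matched to the RefSeq gene BRXL4, had the steepest earlier climb of the contigs with a text description, from 7.03 ± 0.11 (SD, n = 3) in stage I to 11.33 ± 0.12 (SD, n = 4) in V, before it reached 13.97 ± 0.14 (SD, n = 4) in VI. Contig02396, annotated as dihydrokaempferol 4-reductase, an enzyme of flavonoid synthesis, had uneven dry seed arrays of 11.42, 12.62, 12.12 and 10.99 over a stage V mean of 9.81. Contig10146, annotated as methenyltetrahydrofolate cyclohydrolase and methylenetetrahydrofolate dehydrogenase of the folate cycle, went from 10.66 ± 0.09 to 12.68 ± 0.18 (SD, n = 4 each). These 3 contigs stood 7.15, 4.87 and 2.88 log2 units lower in leaf than in the dry seed.

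Other annotated contigs were closer to leaf. Contig08282 (L-2-hydroxyglutarate dehydrogenase) stood at 8.32 in stage VI and 8.02 in leaf, against 5.79 in V. Contig08590 (NAD+ ADP-ribosyltransferase) stood at 11.10 in VI, 9.13 in V and 10.52 in leaf, and contig00872 (random slug protein 5-like) at 10.11, 8.07 and 9.44. Contig03296 (DNA polymerase) was at 9.04 in VI and 7.55 in leaf. The acyltransferase contigs contig06425 and contig14654, the vacuolar iron transporter-like contig03849, the cereblon-like contig00955, contig05340 with the term pollen tube and contig10455 with a hydrolase term had scores between 1.96 and 2.14, and their leaf means were all below stage VI. On contig03849 the other probe of the same direction scored 2.34. Its probes of the opposite direction scored -1.75 and -2.19, and were above background on all 4 stage VI arrays. Which direction reads the transporter gene is not known.

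The study designed PCR primers on contig16330 and contig17888 and plotted quantitative PCR of both against the arrays. Those PCR values were not used here. The primers are the sequences of members that the sources used here give. They are shown so that these contigs can be found in other assemblies.
contig16330 forward primer: aaccaccaccaagaaagtgc
contig16330 reverse primer: attcccctgaagtgtcgatg
contig17888 forward primer: gcactgggcagcattatctt
contig17888 reverse primer: tcgaagctagggaagcacat
On the arrays, contig16330 read 12.03, 11.99, 12.12 and 12.22 in stage VI and 10.20, 10.03, 10.29 and 9.92 in stage V, after a climb from 7.74 ± 0.36 (SD, n = 3) in stage I. Contig17888 is described as uncharacterized and matched to LOC105632593. By its chosen probe it was among the brightest contigs in all seed stages, at 13.37 ± 0.83 (SD, n = 3) in I, 14.26 ± 0.53 (SD, n = 4) in V and 16.20 ± 0.81 (SD, n = 4) in VI. Its 4 stage VI arrays ranged from 15.52 to 17.36, and its score computed from the scanner intensities was 1.45, under the minimum of 1.5. The other probe of the same direction on contig17888 was low in stage I, at 4.50. That probe stood at 10.60 in V and 13.46 in VI, a score of 2.61, so the early level of contig17888 depends on the probe.

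Of the 12 contigs with the highest score, 8 had no annotation read here: contig17153, contig18594, contig12094, contig07588, contig04975, contig01693, contig16768 and contig08360. Contig17153 rose most between V and VI of all 150, by 6.26 log2 units, from arrays of 6.31, 5.99, 6.48 and 5.61 to arrays of 12.64, 11.48, 12.44 and 12.89. Its earlier high was in stage III, at 8.09 ± 0.08 (SD, n = 3), so its score was 4.27. The other probe of the same direction on contig17153 had a score of -0.51 and was above background on no stage VI array. Contig18594 went from 6.44 ± 0.26 to 10.46 ± 0.20 (SD, n = 4 each) between V and VI, and 1 of its seed arrays had a missing scanner value that was imputed for the fit. Contig02278, matched to LOC105638102 with no description, went from 9.41 ± 0.21 to 12.96 ± 0.15 and was above background on only 1 of the 10 leaf arrays. Contig07588, contig04975 and contig16768 were nearly level over stages I to V, with means between 5.75 and 6.36, 5.76 and 6.53, and 7.55 and 7.83, and rose to 10.03, 10.13 and 11.23 in VI. The last of the 12, contig08360, reached 11.96 ± 0.16 (SD, n = 4), and contig01693 10.74 ± 0.33 (SD, n = 4).

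**Figure D2:**
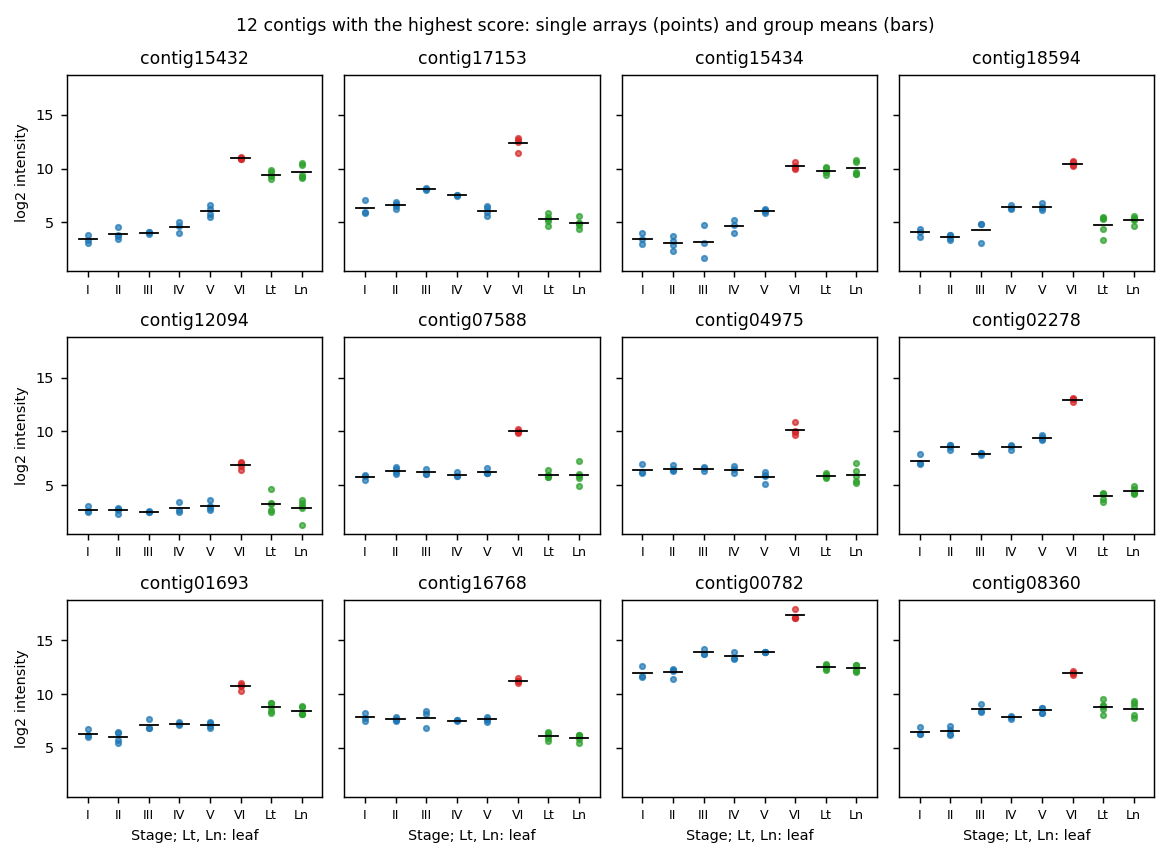
Deposited log2 intensity of the 12 contigs with the highest score in seed stages I to VI and in leaf of toxic (Lt) and non-toxic (Ln) plants; points are arrays and bars group means. Stage VI points lie above all earlier stages in each panel, and leaf approaches stage VI in contig15432 and contig15434.

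Each contig carried between 1 and 7 probes. The 297 probes that were not chosen read the same RNA on the same arrays, so they are not independent of the rule. In the direction of the chosen probe there were 88 other probes on 62 contigs. Of these, 62 (70.5%) had a score of at least 1.5 and 80 (90.9%) a score above 0, with a median of 1.91. At least 1 such probe reached 1.5 on 50 of the 62 contigs, and none did on contig17153 and contig00807, among others. In the opposite direction there were 209 probes on 124 contigs, of which 5 (2.39%) reached 1.5, and their median score was 0.42. Other probes thus reached 1.5 more often in the same direction than in the opposite one. Brightness differed along with direction: 75 of the 88 probes in the same direction and 91 of the 209 in the opposite one were above background on all 4 stage VI arrays, and its part in the difference was not tested. The 5 contigs that rose in both directions were contig00782, contig02569, contig07588, contig09602 and contig10146, named as a small count. By the brightest probe, 336 of all 19838 contigs reached 1.5. The share over all other probes of the array was not taken. Nothing is therefore read from the counts of either direction about the 150 contigs, and these 5 are only listed. Antisense probes represented 59 of the 150 contigs (39.3%), beside 38.7% of all contigs, and the median contig length was 554 bases beside 563.

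**Figure D3:**
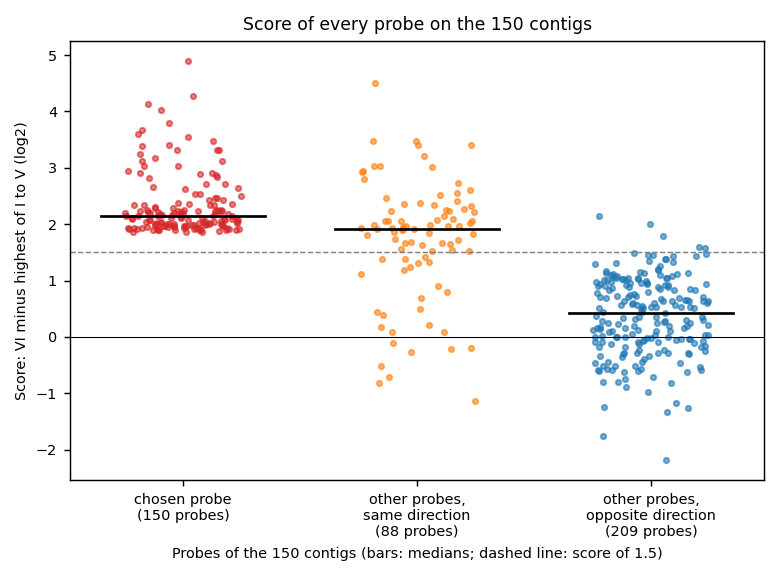
Score (stage VI mean minus the highest mean of stages I to V, log2) of every probe on the 150 contigs, split into the chosen probes and the other probes of the same or the opposite direction. Bars mark medians of 2.14, 1.91 and 0.42, and the dashed line marks the score of 1.5.

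Leaf was not used to choose the contigs, but stage VI was, so the difference between them is described and not tested. Seed and leaf columns of the deposited table also had different medians over all probes, 5.62 to 5.68 in seed and 5.44 to 5.47 in leaf, and how they were scaled to each other is not given in the sources used here. In bulk tissue, fewer cells of a type and less RNA per cell cannot be told apart. The tissue labels were set beside marker contigs. Of 5 leaf marker contigs, 3 were higher in leaf than in stage VI and 2 were lower. Over all contigs, leaf was at or above stage VI in 50.2%, so the leaf marker count alone does not check the labels. Among the 3 was a photosystem II contig (contig00556) at 18.21 in leaf and 10.99 in stage VI. Of 10 seed marker contigs, 9 were lower in leaf and 1 was higher. Among the 9 was an oleosin (contig12313) at 16.78 in stage VI and 4.92 in leaf. The summed level of the leaf markers lay between 19.10 and 19.43 (log2) in leaf arrays and between 12.67 and 13.11 in stage VI arrays, and that of the seed markers between 15.13 and 15.90 in leaf and between 18.36 and 18.45 in stage VI. These sums were taken on the linear scale, so the brightest contigs weigh most in them.

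The median leaf level of the 150 contigs was 8.04, and leaf lay 2.48 log2 units under stage VI in the median, beside 0.01 over all contigs. All 10 leaf arrays were below all 4 stage VI arrays in 131 contigs (27% of all contigs) and above them in 4 (27.9% of all contigs). Leaf was at or below the highest immature stage in 85 contigs, between that stage and the dry seed in 57, and at or above the dry seed in 8. Over all contigs these shares were 69.6%, 4.54% and 50.2%, where the outer classes overlap in contigs whose dry seed is not highest, against 56.7%, 38% and 5.33% of the 150. The rule itself opened the space between immature and dry seed, so nothing is read from these shares. Leaf was at or below the immature stages in 33 of the 49 contigs that had risen before drying, in 47 of the 96 flat ones and in all 5 that had fallen.

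The 8 contigs at or above the dry seed in leaf were led by contig09914, contig03428, contig12598, contig09831 and contig00733. Contig09914, which has no annotation read here, read between 10.73 and 11.31 in leaf, 9.58, 9.95, 9.58 and 9.43 in stage VI and between 6.48 and 7.80 before. Contig03428, annotated as GTP diphosphokinase, which makes the alarmone ppGpp of plastids and bacteria, stood at 9.03 in leaf, 7.89 in stage VI and between 5.19 and 5.88 before. The geraniol 8-hydroxylase-like contig00733, a cytochrome P450 of terpenoid metabolism, stood at 11.73 in leaf and 11.31 in VI, where 3 arrays read 11.02 to 11.17 and replicate 2 read 11.97. Other probes of the same direction on contig00733 had scores of 1.96, -0.19 and -0.099. Leaf and stage VI overlapped in contig00733 and contig09831, and not in the other 3.

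At the other end, contig03985, contig07735, contig17891, contig02278 and contig17153 were the farthest below. Contig03985 stood at 16.93 ± 0.39 (SD, n = 4) in stage VI and 6.73 in leaf, a difference of 10.19, and contig07735 at 14.25 ± 0.18 (SD, n = 4) in stage VI and between 3.29 and 4.73 in leaf. Contig07735 and contig17891 were above background on no leaf array, and stage VI was at least 1068-fold and 554-fold higher than leaf on the same scale. Before drying, contig07735 went from 5.37 in I to 12.24 in IV and was lower in V, at 11.35, and contig17891 went from 4.03 in I to 10.71 in V. In all, 9 of the 150 contigs were above background on no leaf array, 28 on some and 113 on all 10. Contig12094, contig17431 and contig14144 were above background on no array outside stage VI.

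**Figure D4:**
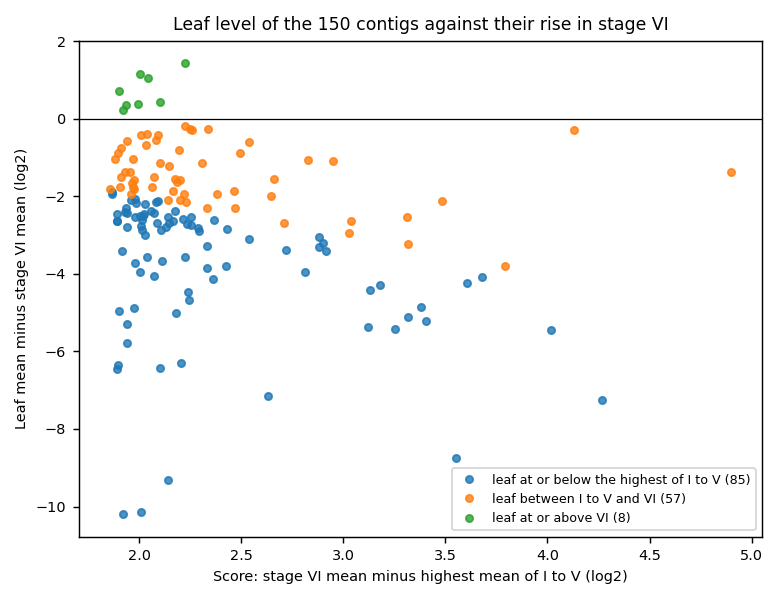
Leaf mean minus stage VI mean against the score, both log2, for the 150 contigs, coloured by where leaf lies relative to the seed stages. Leaf lies at or above stage VI in 8 contigs, and up to 10.19 below it in the others.

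Toxic against non-toxic leaf was the comparison open to a test, since it shared no array with the rule. The test took the 5 arrays of a group as independent, which the labels do not settle. None of the 150 contigs differed (limma, Benjamini-Hochberg over all probes, adjusted p under 0.05), beside 0% of all contigs, and the lowest adjusted p of any of the 150 was 1.00. At an unadjusted p under 0.05 there were 0 of the 150 and 373 (1.88%) of all contigs. The median of the absolute differences was 0.17 log2 units over the 150 contigs and 0.17 over all contigs, with a median SE of 0.38, so that differences of under 1 unit were mostly not detectable with 5 arrays a group. The lowest unadjusted p belonged to contig02396, the flavonoid reductase, which was higher in toxic leaf by 0.31 ± 0.15 (SE, limma adjusted p = 1.00), and by 0.22, 0.16, 0.58 and 0.30 within slides 1 to 4. Contig03467, annotated as alpha-galactosidase and raffinose synthase, had the lowest difference, -1.37 ± 0.88 (SE, adjusted p = 1.00). Its leaf arrays ran from 5.68 to 9.15 in toxic and from 7.44 to 10.57 in non-toxic plants, so the groups overlapped.

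Other contigs of the same pathways show how far the rise reached beyond the 150. Here stage VI was set against stage V by limma on the scanner intensities of all 21 seed arrays, where 17.4% of all contigs rose and 19.7% fell (37.1% in either direction), with a median of 0.06. Of 12 further contigs of raffinose family synthesis, 3 rose and 2 fell, with a median of -0.22. Contig03207, annotated as galactinol synthase and also as cellulose synthase, rose in this test (SE 0.32, adjusted p = 0.00018). In the deposited table it stood at 11.36 in stage V and 13.22 in stage VI, and it missed the 150 with a score of 1.46, whereas contig00738, annotated as galactinol-raffinose galactosyltransferase (stachyose synthase), fell by 3.23 ± 0.21 (SE, adjusted p = 4.6e-09). Of 51 further antioxidant contigs, 7 rose and 13 fell with a median of 0.06. The glutathione peroxidase contig01338 rose by 2.25 ± 0.47 (SE, adjusted p = 0.0015) and the ascorbate peroxidase contig02619 fell by 2.62 ± 0.19 (SE, adjusted p = 1.5e-08). Both lists thus moved in both directions at drying, as all contigs did, so nothing particular to these pathways is read from the counts.

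The remaining enzyme lists, of 10 to 21 contigs, held none of the 150 and are too short for that count to be read. In abscisic acid synthesis and breakdown, 1 of 10 contigs rose, the zeaxanthin epoxidase contig07393 by 1.31 ± 0.17 (SE, adjusted p = 1.7e-05), and 3 fell, with abscisic acid 8'-hydroxylase contig17989, the breakdown enzyme, at -2.70 ± 0.51 (SE, adjusted p = 0.00062). In reserve breakdown 3 of 21 rose and 6 fell, with an alpha-amylase (contig09055) at 1.95 and a beta-amylase (contig05838) at -3.27. In fermentation 5 of 10 fell and 0 rose, and in trehalose 5 of 13 fell and 0 rose, led by an alcohol dehydrogenase (contig10779) at -2.58 and a trehalose-phosphate synthase (contig05296) at -2.49.

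The GO lists came from clusters that the study drew from these same arrays, and long lists were read only in part, so their counts are not independent evidence of direction. In response to heat, 20 of 32 further contigs rose and 2 fell (median 1.153), led by contig01750 at 2.87 ± 0.35 (SE, adjusted p = 5.7e-06). In RNA splicing, 27 of 36 rose and 1 fell (median 1.136), led by contig17285 at 2.71 ± 0.21 (SE, adjusted p = 3.7e-08), and contig04433 fell by 0.90. In the Cul4-RING E3 ubiquitin ligase complex, which marks proteins for removal, 15 of 23 rose and 0 fell (median 1.07), led by contig17557 at 2.46. Abscisic acid-activated signaling was mixed, with 9 of 26 up and 7 down, led by contig17770 at 2.94 and contig08569 at -2.26. In maintenance of seed dormancy 2 of 3 rose, with contig19155 at 2.296, and in lipid storage 3 of 8 rose and 1 fell, with contig18154 at 1.095 and contig11313 at -0.82.

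**Figure D5:**
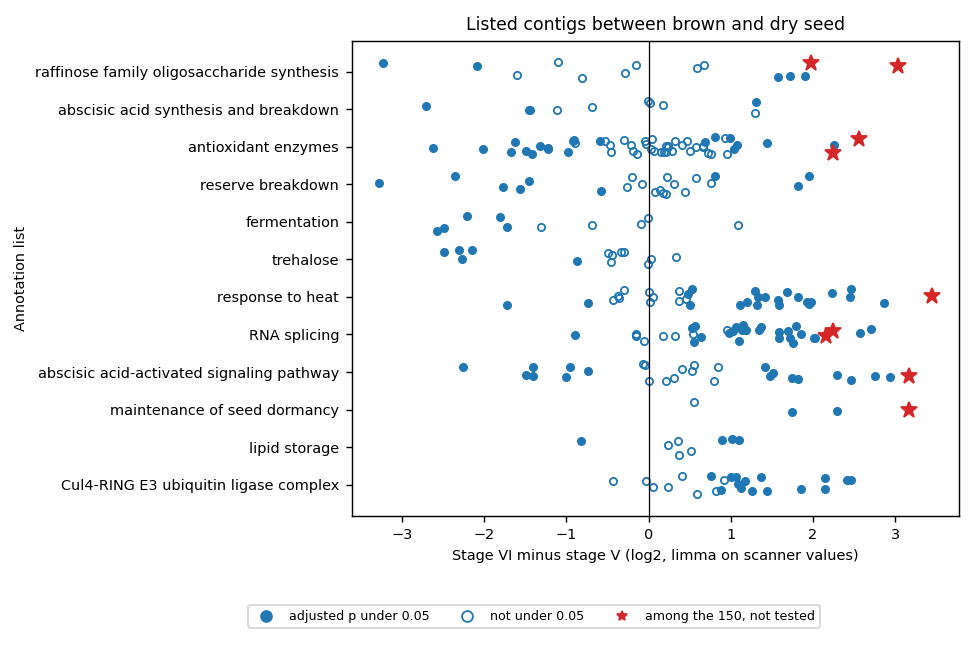
Stage VI minus stage V (log2, limma on scanner intensities) for the contigs of 12 annotation lists; filled points passed an adjusted p of 0.05, open points did not, and stars are contigs among the 150, which were not tested. The heat, splicing and Cul4-RING lists lie mostly to the right of 0, and fermentation and trehalose mostly to the left.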

How the data were processed

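RNA of 21 seed and 10 leaf samples was labelled with Cy3 and hybridised to Agilent 8x60K arrays of 57842 probes. Per the labels, the authors quantified spots with Agilent Feature Extraction 10.5.1.1 and used limma; the deposited log2 table holds their background-corrected, spot-averaged, imputed and quantile normalised values, and the deposited scanner files hold linear intensity values per spot. Levels and the choice of contigs came from the log2 table. Tests used scanner intensity: processed signal without outlier spots, replicate spots averaged, log2, missing values from the 10 nearest probes, quantile normalisation, limma 3.58.1 in R 4.3.3 without covariates, and Benjamini-Hochberg adjustment over 57842 probes, counted on 1 probe per contig. The code was tested on simulated data. The contigs, lists and tests were chosen with earlier results of these data known. Named were the 12 highest scores, annotated contigs (40 by score), those at the edge of the rule, the 5 highest and 5 lowest against leaf, and the largest rise and fall of each list. Alternatives were the log2 table, 75th percentile scaling, normexp (offset 50), a filter on dim probes, slide as a block, the first 3 slides, all 31 arrays, a threshold of 1e-08 and leaving out replicates. Between 47.9% and 69.6% of spots per array were above background, and the number of arrays limits the precision.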

Additional observations from a re-analysis of the deposited data

Results flagged for a closer look

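In 21 of 435 groups of 4 or 5 arrays of the named contigs (4.83%), 1 array stood far from the others, where chance alone marks about 1 in 20. All values are deposited log2 intensities. In stage VI, replicate 2 of contig06016 read 15.002, against a group median of 5.19, and alone carried the score of that contig. Replicate 2 was also high in contig03849 (12.26, median 11.54) and contig00733 (11.97, median 11.11) and low in contig07838 (12.78, median 13.12). Replicate 4 of stage VI, on slide 4, was low in contig06425 (8.52, median 9.06) and contig14654 (8.31, median 8.61) and high in contig07735 (14.52, median 14.17). In stage V, replicate 3 was high in contig07588 (6.61), and replicate 4 was high in contig03985 (15.27) and contig02569 (11.42, median 11.25) and low in contig15031 (10.15), contig02619 (11.97) and contig14673 (2.51, median 3.87), the last 1 of the contigs just outside the 150. In stage II, replicate 1 was low in contig02724 (5.58, median 6.84), contig12328 (9.57), contig16873 (6.13) and contig19623 (5.57, median 6.47). In leaf, toxic replicate 1 was high in contig03428 (9.24), toxic replicate 2 was low in contig04974 (7.66, median 8.38), non-toxic replicate 3 was high in contig17888 (11.45, median 10.36) and non-toxic replicate 1 was low in contig17891 (2.44), a probe not above background in leaf.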

How the results depend on the processing

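Without stage VI replicate 2, the score of contig06016 fell to 0.50 and that of the exostosin contig00807 to 1.49. With scanner intensities and quantile normalisation, 148 of the 150 contigs kept a score of at least 1.5, and contig06016 (0.83) and contig17888 (1.45) did not. The number was 148 with 75th percentile scaling, 134 with normexp, 150 on the first 3 slides, 148 to 150 without 1 stage VI replicate, 109 at a minimum of 2, and 69 with the mean of all probes of a contig, which brings in the probes of the opposite direction. The median score of 2.14 became 2.35 with scanner quantile values, 2.25 with 75th percentile scaling, 1.94 with normexp and 1.46 with the mean of all probes, and 2.12 to 2.19 without 1 stage VI replicate. The median of leaf minus stage VI, -2.48, became -2.68, -2.69, -2.05 and -1.70 in the same order, and -2.48 to -2.45 without 1 replicate; 75th percentile scaling moved all contigs to a median of -0.28. Of the listed contigs outside the 150, 127 were called between stages VI and V, 109 to 152 under the other settings, 116 to 126 without 1 replicate, 151 with slide as a block, and 2 at a threshold of 1e-08. No contig of the 150 was called between toxic and non-toxic leaf under any setting run; over all contigs 17 were called on the first 3 slides and 3 with all 31 arrays in 1 fit, against 0. At an unadjusted p under 0.05, 5 of the 150 were found with slide as a block, 8 on the first 3 slides and 11 in the log2 table. Some seed titles share a replicate mark across stages, among them 2 pairs of brown and dry arrays. With these marks as a replicate block, a setting chosen after seeing the data, 119 listed contigs were called, all among the 127. Deviations from the stage means correlated at 0.21 and 0.33 within the marked pairs and at 0.22 and 0.22 across them, so the marks were not taken to pair arrays. The leaf groups share too few marks for such a fit. Arrays do not measure levels below background, seeds came from 1 plant, and probes that cross-hybridise were not marked.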

Other observations

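In 7 places, contigs of the 150 lay 1 or 2 numbers apart, 14 contigs in all: contig04974 and contig04975, contig06145 and contig06146, contig14744 and contig14746, contig15133 and contig15134, contig15432 and contig15434, contig16767 and contig16768, and contig19623 and contig19625. They were picked out after their values were seen. Those with an annotation read here were the catalase pair and the cellulose synthase pair, and in each of these the chosen probes lay in opposite directions. Scores within a pair were close in some, such as 1.89 and 1.88 in the catalase pair and 3.25 and 3.41 in contig16767 and contig16768, and apart in others, such as 1.97 and 3.61 in contig04974 and contig04975. Whether paired contigs are pieces of 1 transcript was not tested, since their sequences were not used here.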
